A study of Mus musculus with 12 samples.

Results

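The 10 genes described here are products of the early Sertoli cell, the supporting cell of the fetal testis: Cst9, Ptgds, Dhh, Defb19, Cbln4 and Inhbb, which encode secreted proteins or enzymes, and Aard, Mro, Tesc and Cyp26b1, which encode proteins that stay in the cell. Their probes are those whose accession on the array maps to these 10 symbols, a list drawn up with earlier results of these data known. All 10 had a probe, 12 probes in all of the 41174 on the array, and all 10 were among the 19180 features tested. Of the 10, 9 were well above background on all 12 arrays. Cbln4 was so on 7 arrays and entered the test through the mutant females alone.

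The samples were gonadal somatic cells of single mouse embryos at embryonic day 11.5, in 4 groups of 3 embryos by sex and by genotype at Jmjd1a, called here by its current symbol Kdm3a. Control females and control males were heterozygous for the Jmjd1a mutant allele, so the controls carried 1 mutant copy, and mutant females and mutant males were homozygous (Jmjd1a null). All embryos carried the Nr5a1/CD271 transgene, and magnetic beads against CD271 took the cells out of dissociated gonads and mesonephroi, so the cells are those that use the Nr5a1 sequences driving the transgene, a mix that includes Sertoli precursors in males. Litters and strain are unknown here, and the p-values measure the spread between these single embryos. Levels below are log2 of the signal over the 75th percentile of the same array. A change is a difference of such levels between group means, ± the standard error of a limma fit over all 12 arrays, and a gene is called at an adjusted p under 0.05 (Benjamini-Hochberg over 19180 features). Levels of different probes are not comparable with each other.

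Sertoli cells arise in the male gonad when Sry, the gene on the Y chromosome that starts testis development, switches on the transcription factor Sox9. The cells then release signals that instruct their neighbours: the hedgehog ligand Dhh reaches the precursors of steroid-producing Leydig cells, prostaglandin D2 made by Ptgds acts back on supporting cells, and Cyp26b1 breaks down retinoic acid, which would otherwise move germ cells into meiosis. Kdm3a removes methyl groups from lysine 9 of histone H3, a mark of silent chromatin.

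Between 58.0% and 65.2% of an array's spots lay well above background, and the 75th percentile used for scaling ran from 142.9 to 298.5. This array brightness went partly with group. It was 142.9 to 220.4 in control males, 175.1 to 220.7 in mutant males, 188.5 to 279.4 in control females and 267.7 to 298.5 in mutant females. Kdm3a itself fell by 1.95 ± 0.14 in mutant males and fell by 2.27 ± 0.14 in mutant females (limma adjusted p = 9.1e-05 and 4.3e-05); whether its probe lies in the deleted part was not tested. All 7 markers of gonadal somatic cells (such as Nr5a1, Gata4 and Wt1) were well above background on every array. The arrays sat on 3 slides of 4. Mutant male 1 shared slide 1 with every control male, and control female 3 shared slide 3 with every mutant female. Slide 2 took control females 1 and 2 together with mutant males 2 and 3. Fewer Sertoli precursors and less RNA per cell cannot be told apart in such bulk samples.

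**Figure D1:**
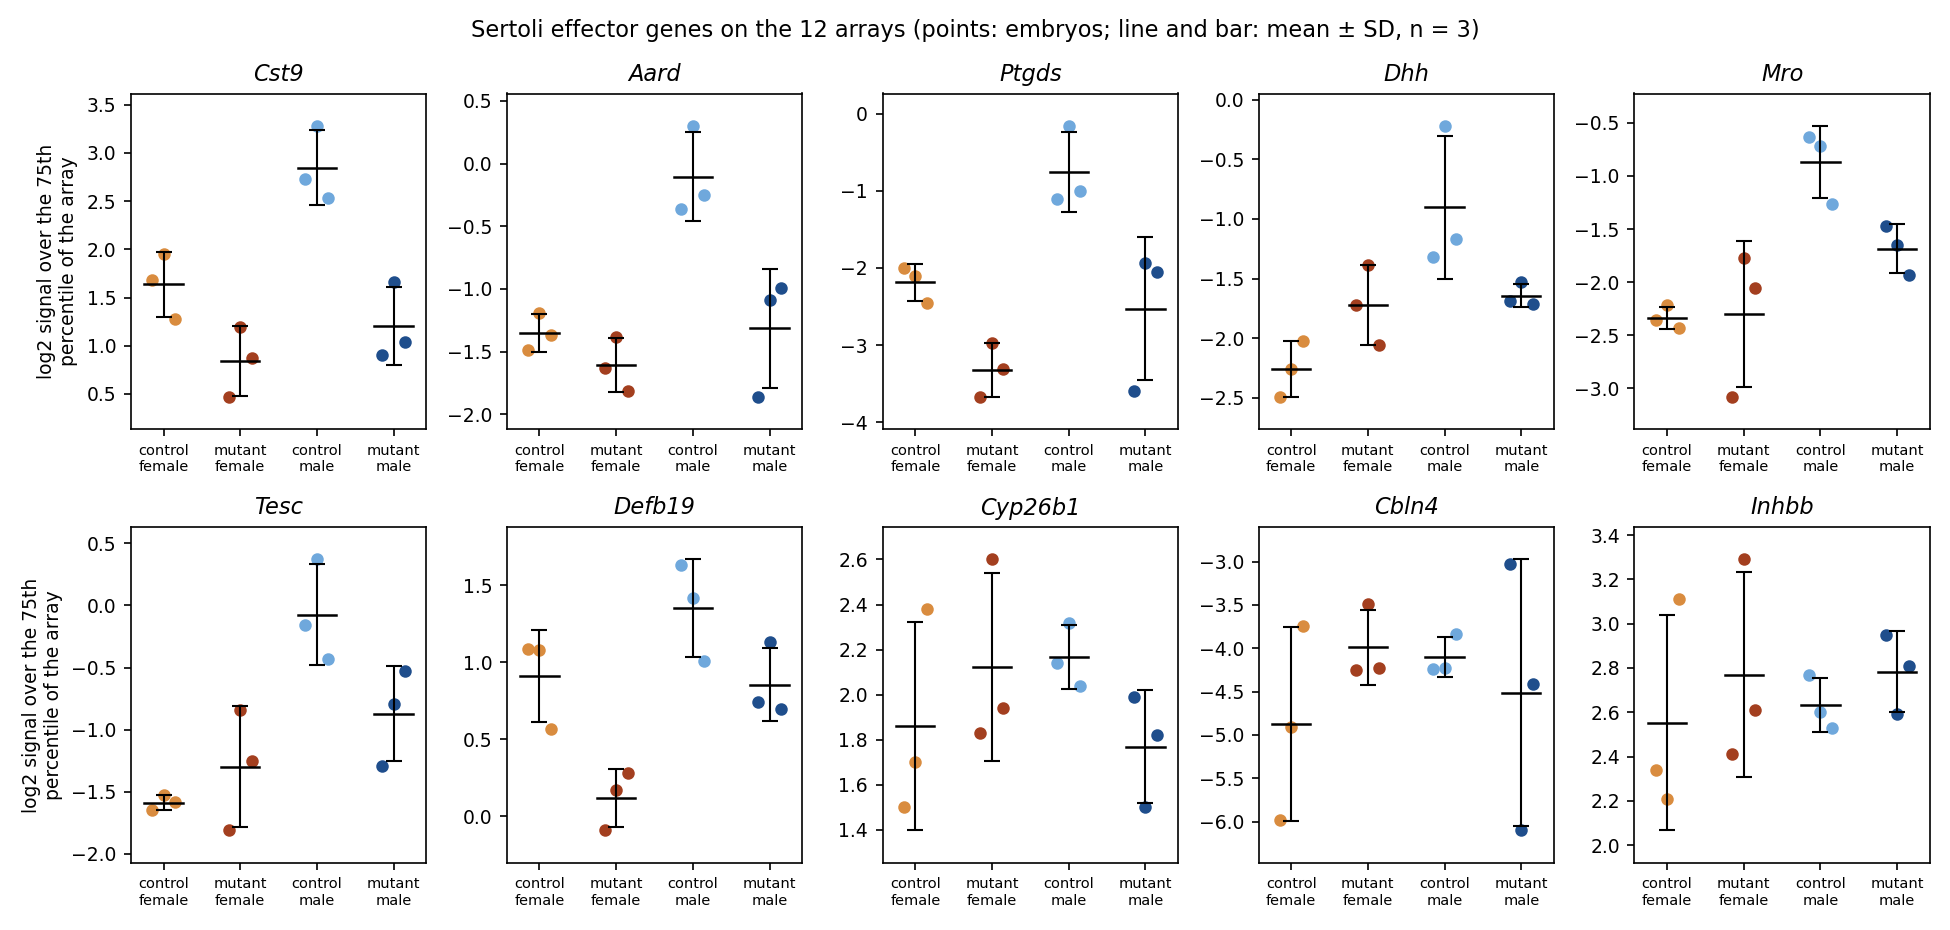
Level of each gene on each array (log2 signal over the 75th percentile of the array, each panel with its own axis), by group; points are embryos, lines and bars the mean and SD of 3. In 6 of the 10 panels (Cst9, Aard, Ptgds, Dhh, Mro and Tesc) all 3 control males lie above all 9 other arrays.

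The control males stood apart in most of these genes. For Cst9, Aard, Ptgds, Dhh, Mro and Tesc, each of the 3 control males was higher than every one of the other 9 arrays, and for Defb19 2 of the 3 were. When each gene was centred on its own mean, the median over the 10 genes was 0.53, 0.77 and 1.2 on the control males. It was -0.44 to -0.27 on the control females, -0.70 to 0.08 on the mutant females and -0.06 to 0.06 on the mutant males. The mutant males therefore lay between the control males and the female groups in this median, apart from mutant female 2 at 0.08. This did not hold gene by gene. The mutant male mean was below that of control females for Cst9, Ptgds, Defb19 and Cyp26b1, and was the highest of the 4 groups for Inhbb. With the mean over the 10 genes in place of the median, mutant males 1 and 2 lay at -0.14 and -0.13, and control female 3 at -0.13. Control male 2 was the highest array for Cst9, Aard, Ptgds, Dhh and Tesc. The SD between arrays of a group was 0.264 for this median.

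Cst9, a secreted relative of the cystatin protease inhibitors that marks fetal Sertoli cells (probe A_51_P506297, chromosome 2), was the 1 gene of the 10 that passed the test in any comparison. Its levels in control males were 2.73, 3.28 and 2.53, and in mutant males 0.90, 1.66 and 1.04. Every mutant male was thus below every control male, by at least 0.87. Cst9 fell by 1.65 ± 0.27 in mutant males, a 3.14-fold change (limma adjusted p = 0.033). In control females the levels were 1.68, 1.95 and 1.28, and in mutant females 0.47, 1.19 and 0.87. These groups did not overlap either, but the nearest arrays were 0.09 apart, and the change of -0.79 ± 0.27 was not called (limma adjusted p = 0.42). The order of the group means was control males, control females, mutant males, mutant females. Mutant males and control females overlapped, as did the mutants of both sexes. The call in males was lost, with the change still between -1.43 and -1.94, when the slide was a block (limma adjusted p = 0.10), when array brightness was a covariate (0.063), with no filter on dim probes (0.076), with the male arrays alone (0.12), and without any 1 of control female 1 or 2, mutant female 3, control male 1 or 2, or mutant male 1 or 3 (0.050 to 0.14). Within slide 1, mutant male 1 was 1.94 below the mean of the 3 control males, and within slide 3 the 3 mutant females averaged 0.44 below control female 3.

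The 250 bases upstream of the annotated start are shown for Cst9, for the secreted-product genes Ptgds and Dhh and the calcium-binding protein gene Tesc, whose levels were also highest in control males, and for Cst8, a cystatin gene beside Cst9 on the chromosome. They come from RefSeq (GRCm38.p6). Windows of 7 of the 10 genes were used here; Aard, Defb19 and Mro are named only. The windows lie at chr2:148834897-148835146 (plus strand) for Cst9, chr2:25469750-25469999 (minus strand) for Ptgds, chr15:98898541-98898790 (minus strand) for Dhh, chr5:118027493-118027742 (plus strand) for Tesc and chr2:148798589-148798838 (plus strand) for Cst8, and each is written 5′ to 3′ toward its gene. Capitals mark the letters searched on both strands: ACAAAG, a motif of SRY and SOX proteins, with its variant ACAATG; for NR5A1 the motif AAGGTCA; and for GATA proteins the motif TGATAA with its variant AGATAA. No 2 matches overlapped.
Cst9: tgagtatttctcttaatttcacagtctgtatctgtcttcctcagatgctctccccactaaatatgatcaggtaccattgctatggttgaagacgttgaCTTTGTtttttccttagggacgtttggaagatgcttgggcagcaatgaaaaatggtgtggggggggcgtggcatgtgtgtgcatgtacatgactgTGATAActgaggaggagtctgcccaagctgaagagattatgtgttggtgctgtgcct
Ptgds: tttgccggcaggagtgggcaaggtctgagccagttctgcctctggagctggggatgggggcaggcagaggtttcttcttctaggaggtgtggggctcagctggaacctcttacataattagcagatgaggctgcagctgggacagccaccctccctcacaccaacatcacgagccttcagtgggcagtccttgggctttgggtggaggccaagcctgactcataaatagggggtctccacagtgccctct
Dhh: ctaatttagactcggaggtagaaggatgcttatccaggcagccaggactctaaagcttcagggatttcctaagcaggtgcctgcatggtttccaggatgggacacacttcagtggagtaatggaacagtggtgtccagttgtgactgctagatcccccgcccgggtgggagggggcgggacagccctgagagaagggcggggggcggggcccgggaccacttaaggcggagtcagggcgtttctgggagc
Tesc: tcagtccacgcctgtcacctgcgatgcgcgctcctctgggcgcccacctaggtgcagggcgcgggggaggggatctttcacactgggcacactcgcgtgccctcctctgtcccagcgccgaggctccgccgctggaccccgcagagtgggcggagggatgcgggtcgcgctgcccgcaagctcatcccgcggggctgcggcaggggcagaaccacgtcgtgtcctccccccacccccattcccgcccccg
Cst8: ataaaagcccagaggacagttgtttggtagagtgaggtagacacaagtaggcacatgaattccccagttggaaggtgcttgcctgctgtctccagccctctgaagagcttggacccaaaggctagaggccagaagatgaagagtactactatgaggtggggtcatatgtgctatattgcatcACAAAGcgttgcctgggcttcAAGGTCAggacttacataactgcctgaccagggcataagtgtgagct

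The Cst9 window held ACAAAG on the opposite strand, 152 to 147 bases before the start, and TGATAA 57 to 52 bases before it. The Cst8 window held ACAAAG 68 to 63 bases before its start and AAGGTCA 47 to 41 bases before it. None of these letters lay in the other 6 windows of the 10 genes (Ptgds, Dhh, Tesc, Cyp26b1, Cbln4 and Inhbb), so 1 of 7 had a SOX motif and 1 of 7 a GATA motif. Among all 32851 RefSeq windows of this length, 25.2% held either SOX motif, 16.6% either GATA motif and 4.08% the NR5A1 motif. ACAAAG alone was in 16.5% and TGATAA alone in 7.94%. Matches to the SOX letters are thus common, and whether any match is used was not tested. GC content was 45.6% in the Cst9 window, 58.4% for Ptgds, 59.6% for Dhh and 73.2% for Tesc, against a median of 52.4% over all windows.

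Ptgds, the lipocalin-type synthase of prostaglandin D2, had the largest change of the 10 in mutant males, and the largest standard error among the 9 genes well above background on all arrays. Its levels were -1.10, -0.16 and -1.0 in control males, against -3.60, -1.94 and -2.05 in mutant males. The groups were separate, with mutant male 1 far below the other mutant males. The change was -1.78 ± 0.41, 3.43-fold in size, and not called (limma adjusted p = 0.13). In females the levels were -2.00, -2.10 and -2.46 in controls, against -3.67, -2.97 and -3.31 in mutants, again without overlap, a change of -1.13 ± 0.41 (limma adjusted p = 0.43). The male change was called with the slide as a block, at -2.85 (limma adjusted p = 0.025), a value that rests on mutant male 1 against the 3 control males of slide 1. It was -1.24 without mutant male 1, the lowest size among the fits that left out an array, and -0.82 with normexp background correction. Within slide 3 the female difference was -0.86. Of 12 other genes of prostaglandin synthesis and reception, 8 were tested and none was called in either sex, with median changes of -0.02 in males and 0.09 in females. Slco2a1, a prostaglandin transporter, had the largest of these in both sexes, 0.62 and 0.56.

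Dhh, the hedgehog ligand of Sertoli cells, was lower in mutants among males and higher in mutants among females, with neither change called. In control males the levels were -1.32, -0.22 and -1.17, against -1.69, -1.53 and -1.71 in mutant males. The male groups did not overlap, and the change was -0.74 ± 0.27 (limma adjusted p = 0.36). It was -0.40 without control male 2, the highest array, and -0.48 with normexp background correction. Control females were the lowest group at -2.49, -2.26 and -2.02, and mutant females lay at -1.72, -1.39 and -2.06, overlapping them narrowly. The female change was 0.53 ± 0.27 (limma adjusted p = 0.49). The difference between the male and female changes was -1.27 ± 0.38, with an unadjusted p of 0.0068 in the limma fit, the smallest among the 10 genes, and an adjusted p of 1.0. Of 14 hedgehog pathway genes 11 were tested, among them the receptor Ptch1 and the effectors Gli1, Gli2 and Gli3. None was called, where 0.469% of all features were in males and 0.355% in females. All 11 were higher in mutant males (median 0.28), where 44.7% of all features were, and 9 were higher in mutant females (median 0.25), where 43.6% were. Ptch1, a transcriptional target of the pathway as well as its receptor, had the smallest change in males, 0.02.

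Defb19, a beta defensin gene also active in fetal Sertoli cells (chromosome 2), had 2 probes with similar changes. The brighter probe read 1.63, 1.42 and 1.01 in control males, against 0.74, 1.13 and 0.70 in mutant males, with mutant male 2 above the lowest control. In females it read 1.09, 1.08 and 0.57 in controls, against -0.09, 0.17 and 0.28 in mutants, with no overlap. The changes were -0.50 ± 0.20 in males (limma adjusted p = 0.39) and -0.79 ± 0.20 in females (limma adjusted p = 0.22). The second probe gave -0.60 ± 0.18 (limma adjusted p = 0.27) and -0.79 ± 0.18 (limma adjusted p = 0.17), without overlap in either sex. All mutant males lay above all mutant females, by 0.73 ± 0.20 (limma adjusted p = 0.29), as in 14% of all features; this difference was 0.27 with the slide as a block and 0.23 with array brightness as a covariate. Within slides the mutants were lower by 0.61 in males and 0.45 in females.

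Of 12 further beta defensin genes, 10 did not pass the filter on dim probes. Defb36 was well above background in every control but in only 1 mutant of each sex, so its size of change was not resolved. Defb42 was well above background on all 12 arrays. It was lower in mutants of both sexes with no overlap, as in 11.9% of all features in males and 7.34% in females, and was not called. Control males read -2.90, -2.99 and -2.87 for Defb42, and mutant males -4.69, -3.62 and -3.86. Control females read -2.72, -2.71 and -2.87, and mutant females -4.06, -3.83 and -4.03. The changes of Defb42 were -1.13 ± 0.22 (limma adjusted p = 0.065) and -1.20 ± 0.22 (limma adjusted p = 0.060). With normexp they were -0.44 (limma adjusted p = 0.12) and -0.51 (0.038), and with the slide as a block the male change was -1.76 (limma adjusted p = 0.0039). In all, 4 alternative settings called it in males and 6 in females. Between control males and control females, Defb42 differed by -0.16.

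The other 2 secreted products had small or unresolved differences. Inhbb, the beta B subunit shared by activin B and inhibin B, lay between 2.21 and 3.29 on all 12 arrays. Its changes were 0.15 ± 0.26 in males (95% interval -0.43 to 0.73) and 0.22 ± 0.26 in females (-0.36 to 0.79), and control males and control females differed by 0.08 ± 0.26 (-0.50 to 0.65). The second Inhbb probe gave 0.19 in males, where its groups did not overlap, and -0.29 in females. Cbln4, a secreted protein of the cerebellin family, was near background. It was well above background in 1 of 3 control females, 3 of 3 mutant females, 1 of 3 control males and 2 of 3 mutant males, with levels from -6.10 to -3.03. Its intervals reached from -1.94 to 1.12 for the change in males and from -0.64 to 2.42 in females, so a change of either sign was not resolved. All 13 activin and inhibin pathway genes were tested and none was called; the activin-binding protein Fst had the largest change, -1.10 in females. Of 8 other cerebellin genes and receptors 4 were tested and none was called.

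Among the genes for intracellular proteins, Aard, which encodes a protein rich in alanine and arginine, came closest to the threshold. It read -0.36, 0.30 and -0.25 in control males, against -1.86, -1.09 and -0.99 in mutant males. The groups were 0.62 apart, and the change of -1.21 ± 0.24, 2.31-fold in size, was not called (limma adjusted p = 0.071). Mutant males overlapped both female groups, which read -1.49, -1.19 and -1.37 in controls, against -1.63, -1.38 and -1.81 in mutants. The female change was -0.25 ± 0.24 (limma adjusted p = 0.60). The male change was called with normexp background correction (-0.81, limma adjusted p = 0.028) and with array weights (-1.36, limma adjusted p = 0.016). Within slide 1, mutant male 1 was 1.76 below the control males.

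Tesc is a calcium-binding protein of the EF-hand family, and Mro is named for its male-specific transcription in reproductive organs. Like Dhh, both were lower in mutant males without overlap and were not called. Tesc read -0.16, 0.37 and -0.43 in control males, against -1.29, -0.79 and -0.53 in mutant males, groups that were 0.10 apart. In females it read -1.65, -1.53 and -1.58 in controls, against -1.81, -0.84 and -1.25 in mutants. The control females were tightly grouped within the range of the mutant females. The changes were -0.80 ± 0.27 in males (limma adjusted p = 0.34) and 0.29 ± 0.27 in females. Mro read -0.63, -0.72 and -1.26 in control males, against -1.47, -1.65 and -1.93 in mutant males, a change of -0.81 ± 0.29 (limma adjusted p = 0.36), and of -0.47 with normexp. In females it read -2.36, -2.22 and -2.43 in controls, against -3.08, -1.77 and -2.06 in mutants, and the means differed by 0.04.

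Cyp26b1, the enzyme that breaks down retinoic acid, had group means between 1.77 and 2.17. It read 2.14, 2.32 and 2.04 in control males, against 1.99, 1.5 and 1.82 in mutant males, groups that were 0.05 apart. It read 1.5, 1.7 and 2.38 in control females, against 1.83, 2.60 and 1.94 in mutant females. The changes were -0.40 ± 0.25 in males (95% interval -0.96 to 0.17, limma adjusted p = 0.47) and 0.26 ± 0.25 in females (-0.30 to 0.83). Of 17 other genes of retinoic acid synthesis, breakdown and reception 13 were tested and none was called. Aldh1a1, a retinaldehyde dehydrogenase that makes retinoic acid, had the lowest change in both sexes, -0.67 ± 0.15 in males (limma adjusted p = 0.11) and -0.78 ± 0.15 in females (limma adjusted p = 0.075), without overlap in either.

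**Figure D2:**
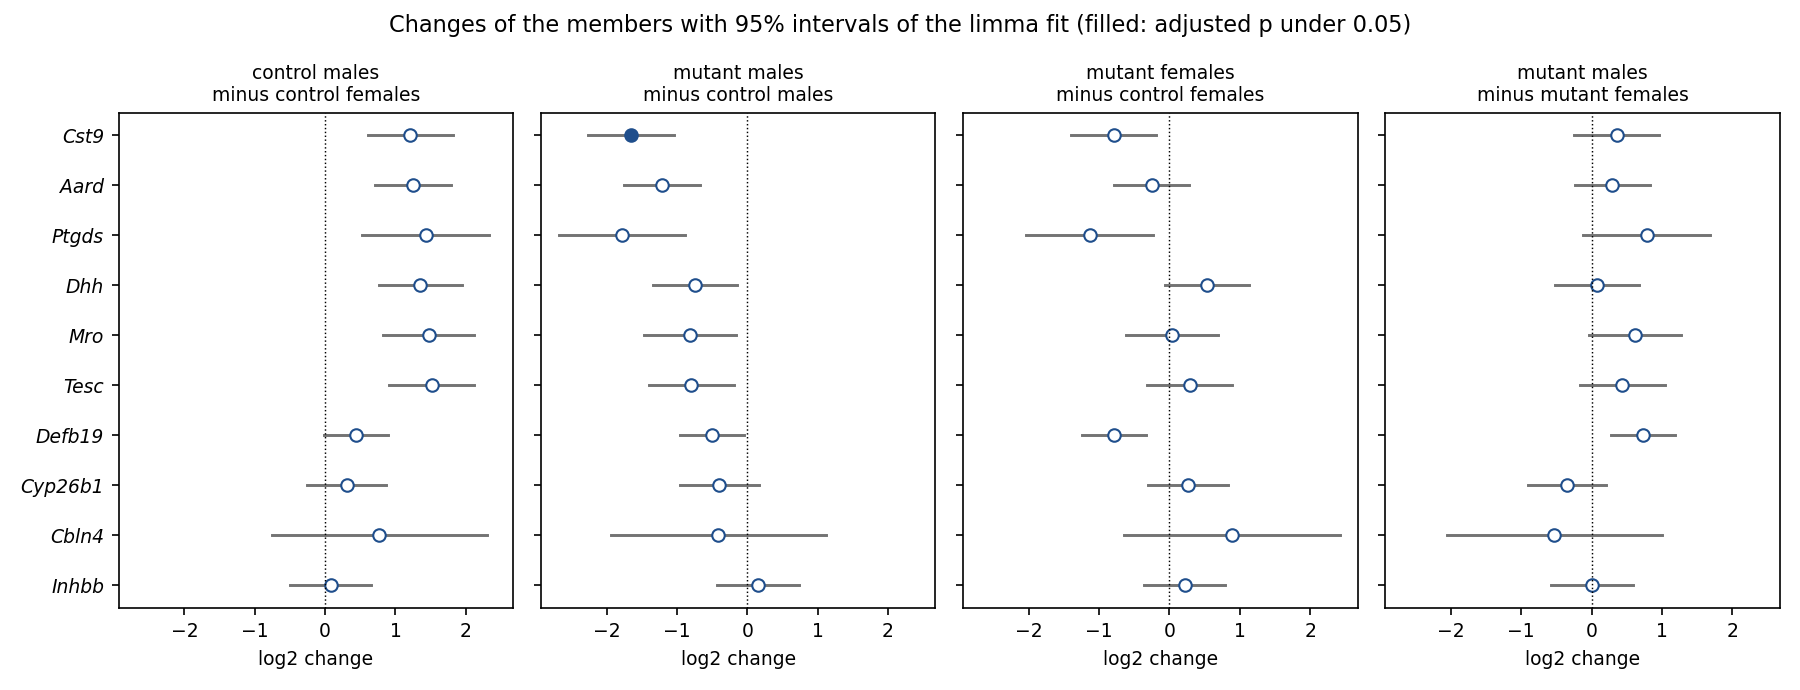
Change of each gene in 4 comparisons (log2 difference of group means; bars are 95% intervals of the limma fit, filled points have an adjusted p under 0.05). Cst9 in males, at -1.65, is the filled point; control males exceed control females in all 10 rows.

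Between control males and control females, the comparison that asks which of these genes already differ by sex at this stage, all 10 genes had a higher mean in males, where 55.6% of all features did. The median difference was 1.23, against 0.04 over all features. In 6 of the 10 every control male exceeded every control female, where 10.1% of all features did so in this direction. None of the 10 was called, where 0.177% of all features were (34 of 19180). The differences were 1.52 ± 0.27 for Tesc (limma adjusted p = 0.085), 1.47 ± 0.29 for Mro (0.10), 1.43 ± 0.41 for Ptgds (0.33), 1.35 ± 0.27 for Dhh (0.10), 1.25 ± 0.24 for Aard (0.097) and 1.21 ± 0.27 for Cst9 (0.16). For Defb19 it was 0.44 ± 0.20, for Cyp26b1 0.31 ± 0.25 and for Cbln4 0.77 ± 0.69. With array brightness as a covariate these became 0.02, 0.57 and 1.91. With the same adjustment, Sox9 (1.37 ± 0.18) and Fgf9 (1.36 ± 0.16), a growth factor that sustains Sox9, were called. No slide held both a control male and a control female, so there is no value within a slide; with the slide as a block the median was 1.29 and none of the 10 was called. Without mutant female 1 Mro was called (limma adjusted p = 0.019), and without mutant male 1 Aard was (limma adjusted p = 0.036). Marker genes of other cell types differed between the control sexes too, with none called. All 8 endothelial markers (median -0.48) and all 4 erythroid markers tested (-1.03) were lower in males, where 44.4% of all features were. So were 8 of 10 markers of mesonephric epithelium (-0.44) and 4 of 5 leukocyte markers tested (-0.29). Of 7 germ cell markers 6 were higher (0.43), and of 5 steroidogenic markers 3 (0.36). Their part in the sex difference was not tested.

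In mutant against control males, 9 of the 10 genes were lower, Inhbb being the exception, where 55.3% of all features were. The median change was -0.77, against -0.05 over all features. The groups did not overlap in 7 of 10 (Cst9, Aard, Ptgds, Dhh, Mro, Tesc and Cyp26b1), where 11.9% of all features were lower without overlap. Of the 10, 1 was called lower, where 0.391% of all features were. Array weights called 7 of the 10, but they also called 5168 of all 19180 features. In the Sry and Sox9 pathway list 16 of 18 genes were tested and 3 were called, all lower: Sry, Sox9 (-1.05 ± 0.18, limma adjusted p = 0.036) and Fgf9 (-1.14 ± 0.16, limma adjusted p = 0.015). The Sox9 call held in 6 of 22 alternatives, and in 1 of the 12 that left out an array. Its limma adjusted p reached 0.22, and the Fgf9 call held in 19 of 22. Sry was well above background in the 3 control males and on no other array. It thus entered the test through the control males alone, its highest group. Of 15 further Sertoli genes 9 were tested and none was called; Gatm, an enzyme of creatine synthesis, had the largest change, -1.04 ± 0.36 (limma adjusted p = 0.34). Since this comparison and the one between control sexes share the control males, and a high value there moves both, they are not independent of each other.

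Marker genes of another cell type were also higher in mutant males. All 10 markers of the epithelium of mesonephric tubules, which lie next to the gonad, passed the filter, 7 of them on all arrays. All 10 had a higher mean in mutant males than in control males, with a median change of 0.93, where 44.7% of all features were higher. None was called higher, where 0.0782% of all features were. Their summed level, in multiples of the 75th percentile, ran from 41.0 to 47.9 in control males and from 50.1 to 65.8 in mutant males. A sum of this kind follows its brightest probes and does not weigh the markers equally. Here it came mainly from the keratin genes Krt18 (mean level 4.93 in control and 5.15 in mutant males) and Krt8 (3.57 and 3.81). In females it ran from 45.9 to 53.4 in controls and from 40.2 to 49.9 in mutants. The 7 gonadal somatic markers summed to 43.3 to 49.9 in control males and 45.9 to 60.5 in mutant males. In other marker lists too the means leaned one way, with no gene called. All 8 endothelial markers were higher in mutant males (median 0.60; summed level 2.67 to 4.37 in control and 2.90 to 5.49 in mutant males), as were all 5 leukocyte markers tested (median 0.53; 0.727 to 2.56 and 1.22 to 2.61) and all 4 erythroid markers tested (median 0.42; 27.4 to 209.0 and 22.6 to 278.0). Of 7 germ cell markers tested 6 were higher (median 0.16; 1.35 to 1.48 and 1.48 to 2.06). Of 5 steroidogenic markers tested 4 were lower, 3 without overlap (median -0.46; 5.97 to 7.98 and 5.74 to 6.95). Of all features 55.3% were lower and 11.9% lower without overlap. Mc2r, the corticotropin receptor, was the lowest of the 5 at -1.05 ± 0.22 (limma adjusted p = 0.093). The germ cell markers Dazl and Kit and the leukocyte markers Ptprc, Cx3cr1 and C1qa did not pass the filter. The part of all these markers in the changes of the Sertoli genes was not tested.

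In mutant against control females the 10 genes divided. Cst9, Ptgds and Defb19 were lower without overlap, 3 of 10, where 7.34% of all features were. The other 7 overlapped, 6 of them with a higher mean in mutants and Aard with a lower one, and the median over the 10 was 0.13. Cbln4, the highest of the 6 at 0.89 ± 0.69, entered the test through these mutant females alone. None of the 10 was called, where 0.355% of all features were (68 of 19180). All 3 that separated were also lower within slide 3 (by 0.44, 0.86 and 0.45), a comparison of 3 mutant females with 1 control. Array weights called these 3, but they also called 6157 of all 19180 features in females. No gene of the pathway, family and marker lists was called in females. Steroidogenic markers were lower in mutant females as well: all 5 tested had a lower mean (median -0.31), 2 without overlap. Of all features 56.4% were lower and 7.34% lower without overlap. The summed level of the 5 ran from 6.44 to 7.02 in controls and from 4.72 to 5.6 in mutants. Star, which moves cholesterol into mitochondria, was lowest at -0.73 ± 0.15 (limma adjusted p = 0.094). Other marker lists leaned one way in females too. Of 8 endothelial markers 7 were lower (median -0.39), of 10 mesonephric markers 7 (-0.10) and of 5 leukocyte markers tested 3 (-0.13). All 7 gonadal somatic markers (median 0.28), all 4 erythroid markers tested (0.09) and 4 of 7 germ cell markers tested (0.68) were higher, where 43.6% of all features were. The part of all these markers in the lower Cst9, Ptgds and Defb19 levels was not tested.

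**Figure D3:**
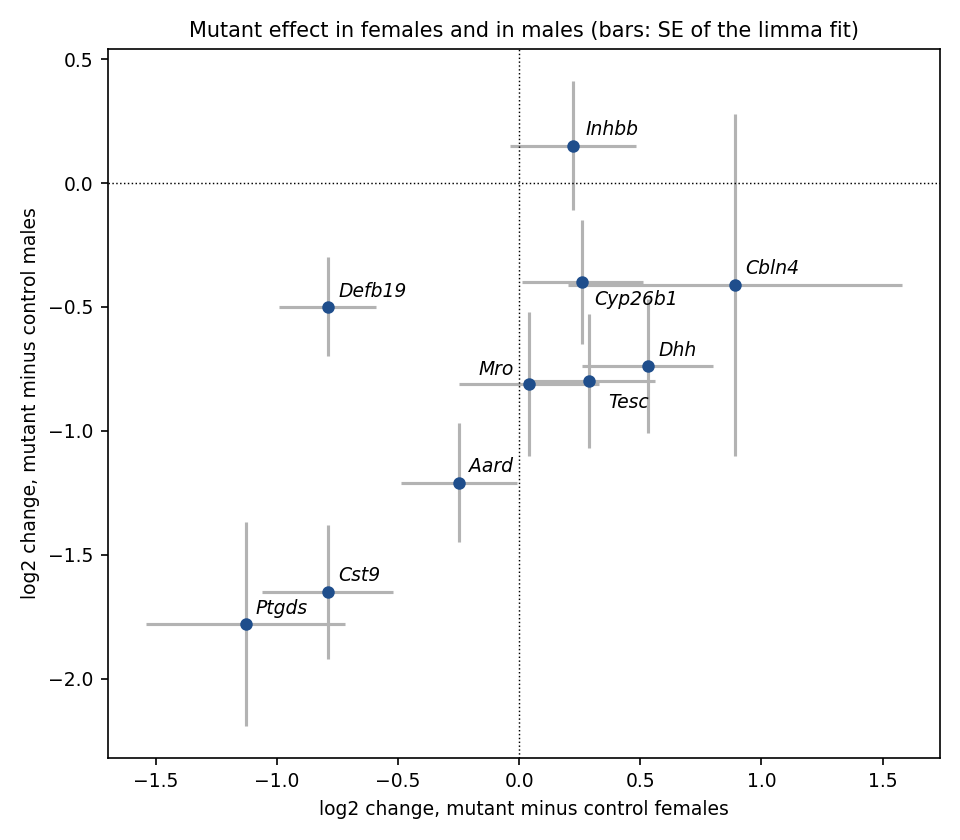
Change in mutant males (vertical) against change in mutant females (horizontal) for the 10 genes, in log2; bars are the standard errors of the limma fit. Cst9, Ptgds, Aard and Defb19 lie in the lower left, and Dhh, Tesc, Mro, Cyp26b1 and Cbln4 lie at or right of 0 and below it.

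The mutant effect was lower in males than in females for 9 of the 10 genes, Defb19 being the exception, where 48.7% of all features were. Of these 9, Cbln4 had the lowest value (-1.30 ± 0.97), but it entered the test through the mutant females alone, its highest group. The median difference between the effects was -0.85, against 0.01 over all features. None of the 10 and none of the 19180 features was called for this difference (0% in the limma fit; 709 features had an unadjusted p under 0.05). The unadjusted p was 0.0068 for Dhh (-1.27 ± 0.38), 0.018 for Aard (-0.96 ± 0.34), 0.018 for Tesc (-1.09 ± 0.39) and 0.050 for Cst9 (-0.86 ± 0.39), each with an adjusted p of 1.0 in the limma fit. Other fits called 8 features with the slide as a block and 1 with array brightness as a covariate, and in no fit was one of the 10 called. Markers of other cell types leaned the other way in this difference. All 10 mesonephric markers (median 0.78), 7 of 8 endothelial (0.92) and all 5 leukocyte markers tested (0.95) were higher, where 51.3% of all features were. Of 7 germ cell markers 3 were higher (-0.07), and of 5 steroidogenic markers 4 (0.02). The part of these markers in the difference was not tested. Between mutant males and mutant females none of the 10 was called, where 0.13% of all features were, and 1 of 10 (Defb19) was higher without overlap, where 14% of all features were. The median difference there was 0.32, and 0.17 without mutant female 1, 0.20 without mutant male 3 and 0.51 without mutant male 1. The largest were 0.79 ± 0.41 for Ptgds, which was 1.32 without mutant male 1 and 0.49 without mutant male 2, and 0.73 ± 0.20 for Defb19.

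**Figure D4:**
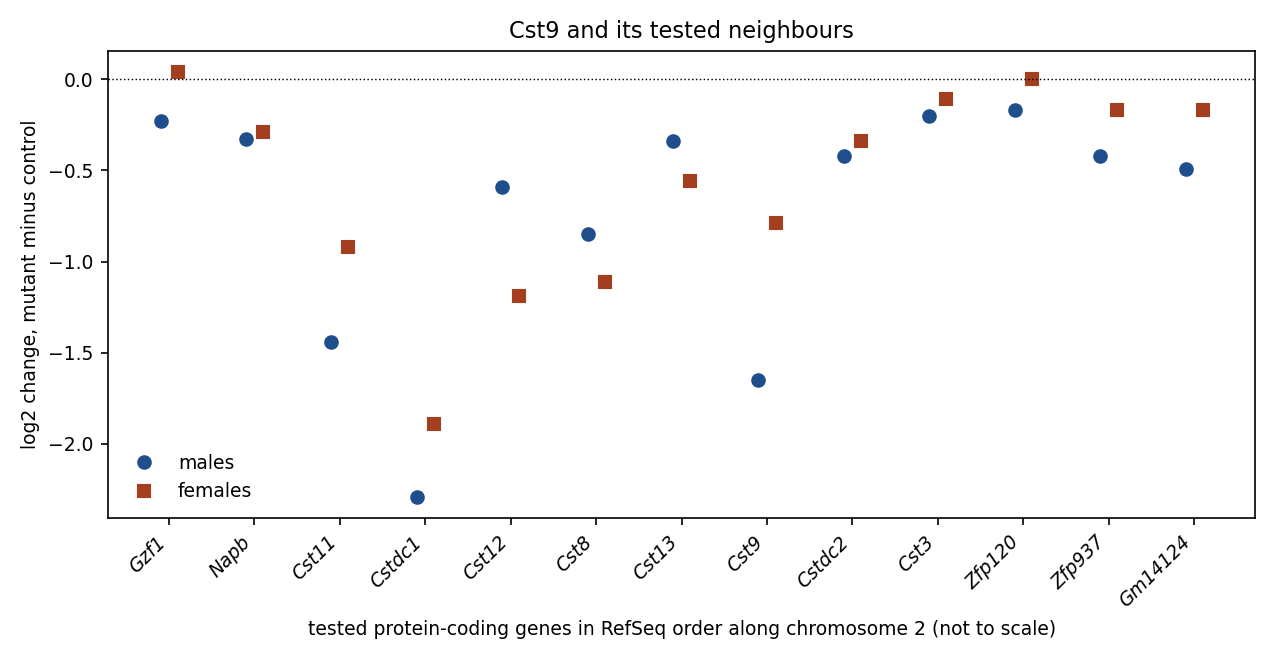
Change in mutant males (circles) and mutant females (squares), in log2, for Cst9 and the 12 tested genes among the 8 protein-coding genes on each side of it, in their order along chromosome 2 and not to scale. All 12 neighbours lie below 0 in males and 11 of 12 in females, with Cst11 and Cstdc1 furthest down in males.

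Cst9 lies in a cluster of cystatin genes on chromosome 2, and its neighbours were also lower in mutants. Of the 8 protein-coding genes on either side, 12 were tested. All 12 were lower in mutant males (median -0.42), where 55.3% of all features were, and 11 of 12 in mutant females (median -0.32), where 56.4% were. This window was chosen with the values in view. With 4 genes on each side 6 of 6 were lower in both sexes, and with 16 on each side 15 of 20 were lower in males and 16 of 20 in females. The same count around the other 9 genes ran from 4 of 12 (Ptgds and Tesc) to 9 of 12 (Inhbb) in males, and around Tesc 0 of 12 were lower in females.

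Cst11, 5 genes before Cst9, was the neighbour that passed the test. It read -1.63, -1.48 and -2.09 in control males, against -3.39, -2.87 and -3.26 in mutant males, and fell by 1.44 ± 0.22 (limma adjusted p = 0.021). In females it read -2.15, -2.14 and -2.72 in controls, against -3.44, -3.07 and -3.28 in mutants, again apart, a change of -0.92 ± 0.22 (limma adjusted p = 0.17). Its call was lost with normexp (-0.59, limma adjusted p = 0.11), with the slide as a block (-1.66, limma adjusted p = 0.052), with no filter on dim probes (0.051), with the male arrays alone (0.10) and without control male 1 or 2 or mutant male 1 or 3 (up to 0.11).

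Cst8 read 3.58, 3.40 and 3.16 in control males, against 2.24, 2.89 and 2.46 in mutant males, and 3.21, 3.36 and 2.69 in control females, against 1.66, 2.13 and 2.14 in mutant females. Both sexes were separate, with changes of -0.85 ± 0.22 (limma adjusted p = 0.19) and -1.11 ± 0.22 (limma adjusted p = 0.091). Cst12 changed by -0.59 ± 0.27 and -1.19 ± 0.27, and Cst13 by -0.34 ± 0.19 and -0.56 ± 0.19. Cstdc1 changed by -2.29 ± 0.47 in males (limma adjusted p = 0.077), and by -0.50 with normexp. It was well above background in all controls, in 1 mutant male and in no mutant female. With mutant female levels raised to the dimmest signal well above background on their array, it was 1.73-fold lower than in control females. Cst3, the widely expressed cystatin C and the second gene after Cst9, changed by -0.20 ± 0.17 and -0.11 ± 0.17. Of the cystatin list as a whole 8 of 11 were tested, 7 were lower in males and 8 in females, with medians of -0.30 and -0.74; the exception in males, Csta1, was well above background on 7 arrays and had a standard error of 2.65. Between control males and control females Cst8 differed by 0.30 ± 0.22 and Cst12 by -0.01 ± 0.27, where Cst9 differed by 1.21 ± 0.27. Whether probes of such related genes bind each other's RNA was not tested.

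**Figure D5:**
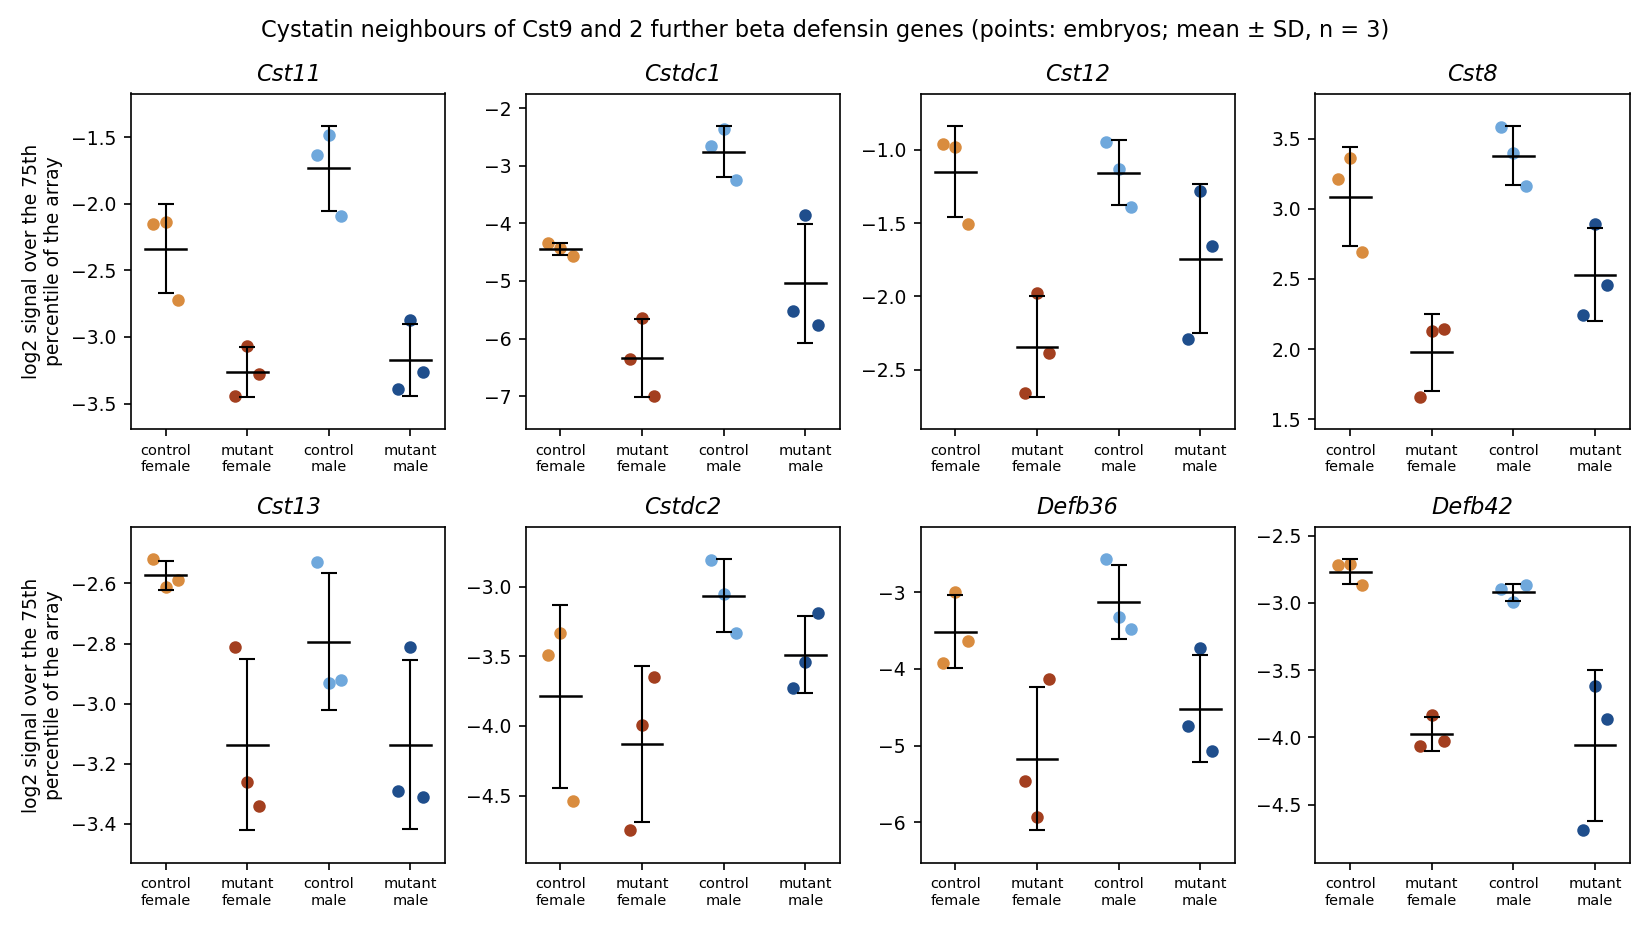
Level of 6 cystatin genes beside Cst9 and of Defb36 and Defb42 on each array (log2 signal over the 75th percentile of the array, each panel with its own axis); points are embryos, lines and bars the mean and SD of 3. Mutants lie below controls of their sex without overlap for Cst11, Cstdc1 and Cst8 on the top row and for Defb36, mostly near background in mutants, and Defb42 below it.

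Over the 12 arrays, the genes whose levels were most like the mean of the 10 centred genes were Rasgrf2 (Pearson r = 0.937), Gask1b (0.934), Gstm6 (0.920), Cbr3 (0.919), Rnase1 (0.915) and Scrn1 (0.914), out of 13204 named genes compared. Rnase1, a secreted ribonuclease, was lower by 3.53 in mutant males and higher by 3.71 in control males than in control females. Most like Cst9 alone were Slc16a4 (0.973), Rgn (0.972), Ptdss1 (0.966), Gstm6 (0.958), Gstm1 (0.953) and Cst11 (0.952). These values describe likeness over arrays that share the 4 groups, the slides and the scaling.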

How the data were processed

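Agilent Feature Extraction 10.5.1.1 made the scanner files (array design 014868, mm9), per the file headers. The authors deposited intensities: a processed signal, background-subtracted and not scaled between arrays per the file headers, and a raw signal with its local background, used for normexp (offset 50). Each of the 12 arrays held Cy3-labelled RNA of 1 embryo. Log2 processed signals were set against the 75th percentile of the array, outlier spots were left out and spots of a probe averaged. Of 41174 probes 27479 were named through RefSeq (GRCm38.p6), 18749 symbols. The filter asked for a signal well above background in every embryo of some group; a gene was then represented by its brightest probe. Group means were fitted in limma 3.58.1 (R 4.3.3) with 5 contrasts, checked on simulated data. The number of arrays limits the precision. The members and lists were chosen with earlier results of these data known. Named genes were the 10 members, up to 3 genes of a list with the smallest p, called list genes, and the 6 most alike; the neighbours of Cst9 were added after their values were seen. Alternatives were quantile normalization, normexp, 2 other filters, single probes, fewer groups, array weights, slide, replicate number, brightness and leaving out arrays. Replicate numbers did not pair samples.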

Additional observations from a re-analysis of the deposited data

How the results depend on the processing

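The 10 genes' median change in males stayed below 0 and that between control sexes above 0 under every alternative run, while counts of called genes moved. In males, 1 of the 10 was called as reported; normexp called 2 (Cst9 and Aard), array weights 7, no filter on dim probes 0, only the groups compared 0 and array brightness as a covariate 0. Leaving out an array gave 0 to 1. With normexp the male median was -0.47, that between control sexes 0.84 and that of the difference of effects -0.49. In females array weights called 3 and gave a median of -0.18, the slide as a block gave -0.25, and leaving out an array gave -0.14 (without mutant female 2) to 0.40 (without mutant female 1), so this median has no settled sign. Between control sexes normexp called 2, array weights 5, and leaving out an array 0 to 1. Between mutant sexes array weights called 1. The replicate block called 2 of the 10 in males (Cst9 and Aard) and 1 between control sexes (Cst9); same-numbered arrays correlated at -0.53 to 0.43 in their deviations, so the numbers were not taken as pairs. Over all features the counts of 90, 68, 34 and 25 called (males, females, control sexes, mutant sexes) ran from 21 to 95, 13 to 124, 10 to 41 and 7 to 38 outside array weights, which gave 5168, 6157, 292 and 202 and whose weights did not converge. The cause of these differences was not tested. Cbln4, near background, had a change of either sign across alternatives in males (-1.15 to 1.07). Single changes that moved by over 1.5 times included, with the slide as a block, Tesc (-1.22) and Cyp26b1 (-0.18) in males and Cst9 (-0.44), Defb19 (-0.45) and Dhh (0.30) in females. With normexp they included Ptgds (-0.53) and Dhh (0.16) in females, and with array brightness Defb19 in males (-0.32).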
